A study of Mus musculus with 6 samples.

Results

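T cell and cytotoxic lymphocyte genes were examined in obstructed mouse kidneys that carried or lacked the microRNA gene Mir92b. The 40 genes were taken by a list of symbols from the 34714 gene rows of the kidney count table, with no threshold on their measured values. They comprise 24 genes of T cells in general, 12 of cytotoxic lymphocytes (natural killer cells and killer T cells) and 4 genes of checkpoint control and homing, Pdcd1, Tigit, Cxcr3 and Cxcr6, which both kinds of cell can express. All 40 had a row in the table and all 40 passed the filter on low counts, as did 18927 genes in all.

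The libraries came from whole kidneys of male mice, 3 of C57BL/6J wild type and 3 of a purchased global knockout strain, miR-92b-/-, in which the gene is deleted in every cell. Every mouse of both groups was operated on at 8 weeks of age to tie off the left ureter (unilateral ureteral obstruction, UUO), and the ligated kidneys were collected 10 days later. The protocol in the labels calls these kidneys nonfibrotic controls, although ligation is the procedure that produces fibrosis in this model, and no sham-operated kidney was analysed here. The labels number the replicates 1 to 3 but do not say that each came from its own animal, so p-values measure the spread between these libraries, which may be technical. The table holds no microRNA row in which the deletion could be checked.

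T cells recognise antigen through a receptor whose signal is passed on by the CD3 chains and CD247 to the kinases Lck and Zap70 and the adaptor Lat. Killer T cells and natural killer cells destroy targets with granules that hold perforin and granzymes, and they secrete interferon-gamma. After ureteral obstruction the kidney fills with macrophages, dendritic cells and T cells while its tubules are lost and fibroblasts lay down matrix.

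The deleted microRNA pairs with messenger RNAs mainly through its seed, bases 2 to 8 of the mature strand. Printed from RefSeq (GRCm38.p6), with the seed in capitals, are 6 mouse microRNAs with this seed, because the other 5 have genes of their own and share its matches. The 6 were chosen by name, and further microRNAs with the seed were not searched for.
mmu-miR-92b-3p: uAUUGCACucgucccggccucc
mmu-miR-92a-3p: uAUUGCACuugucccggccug
mmu-miR-25-3p: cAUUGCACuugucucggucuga
mmu-miR-32-5p: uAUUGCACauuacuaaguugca
mmu-miR-363-3p: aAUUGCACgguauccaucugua
mmu-miR-367-3p: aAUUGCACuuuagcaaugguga
The longest 3' untranslated region of each of the 40 genes in GENCODE M21 (GRCm38) was searched on the transcript strand for GTGCAAT (pairing with bases 2 to 8), for TGCAATA (bases 2 to 7 followed by A) and for GTGCAATA (both). Of the 40 genes, 3 held such a match, against 13.4% of the 15375 tested genes with an annotated region, and none held the longest form, which 2.65% of those genes held. The 3 sites are printed 5' to 3' with the match in capitals, and their genes are described with the others below.
Cd247 at chr1:165870914-165870920 (plus strand): tatgcttgtgtGTGCAATccatgcaaacc
Cd28 at chr1:60773335-60773341 (plus strand): aatgcttagccTGCAATAaatatttattc
Eomes at chr9:118485125-118485131 (plus strand): tatcctgttttGTGCAATtctctgagaga
The median length of the searched region was 914 nt for the 40 genes and 1114 nt for all tested genes.

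Library totals ran from 38738204 to 51932509 counts. No gene of 18927 had an adjusted p under 0.05 in edgeR's quasi-likelihood test (0% called), 1495 genes (7.9%) had an unadjusted p under 0.05, DESeq2 called 62 genes (0.328%) and limma-voom called 3 (0.0159%). Markers of other cells of the kidney differed between libraries as well as between groups. The summed level of 10 dendritic cell markers was 142, 182 and 196 CPM (counts scaled to a common library total with edgeR's TMM factors) in wild-type replicates 1 to 3 and 205, 213 and 108 CPM in knockout replicates 1 to 3. The 12 tubule epithelium markers summed to 4628, 8395 and 8384 CPM in wild type and 9092, 7090 and 4094 CPM in knockout, and the 12 fibroblast and endothelium markers to 3369, 2085 and 1524 CPM in wild type and 1981, 3868 and 5917 CPM in knockout. The 12 macrophage markers summed to 1716, 1794 and 1797 CPM in wild type and 2007, 2288 and 2352 CPM in knockout, higher in every knockout library. The 13 B cell and plasma cell markers summed to 320.3, 365 and 380.5 CPM in wild type and 383, 468 and 447 CPM in knockout, also higher in every knockout library. Of these Jchain, the joining chain of secreted antibodies, stood at 5.29, 6.72 and 3.55 CPM in wild type and 88.2, 108 and 53.4 CPM in knockout, 16.03-fold higher in the fit with an SE of 0.34 on the log2 scale (edgeR quasi-likelihood adjusted p = 0.0568). It was called by DESeq2 and limma-voom, and the sums of the other 12 markers overlapped, 315 to 377 CPM in wild type and 295 to 394 CPM in knockout. The 10 neutrophil and mast cell markers summed to 45.5, 26.7 and 19.2 CPM in wild type and 23.3, 26.2 and 28.2 CPM in knockout. The part of these other cells in the values of the 40 genes was not tested. The knockout replicate 3 was the lowest of the 6 libraries for dendritic cell and tubule markers and the highest for fibroblast and endothelium markers.

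None of the 40 genes differed between the genotypes at an adjusted p under 0.05 in edgeR's quasi-likelihood test, in either direction. The 24 T cell genes lay evenly about no change, 12 above and 12 below, and the median of their log2 fold changes, in which a positive sign means higher in the knockout, was -0.07. The 12 cytotoxic genes lay lower, 3 above 0 and 9 below, with a median of -0.20, and the 4 checkpoint and homing genes were split, with a median of -0.03. The median over all genes tested was -0.02. In bulk tissue, fewer cells of a type and less RNA per cell cannot be told apart. Of the 40 genes, 1 (Gzmb, lower) had an unadjusted p under 0.05, beside 3.52% of all genes tested in that direction and 4.38% in the other. The 3 wild-type and 3 knockout values did not overlap for 2 of the 40, Tcf7 (higher) and Gzmb (lower), whereas 8.95% of all genes tested were higher and 7.2% lower in the knockout without overlap, 16.1% in all.

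**Figure D1:**
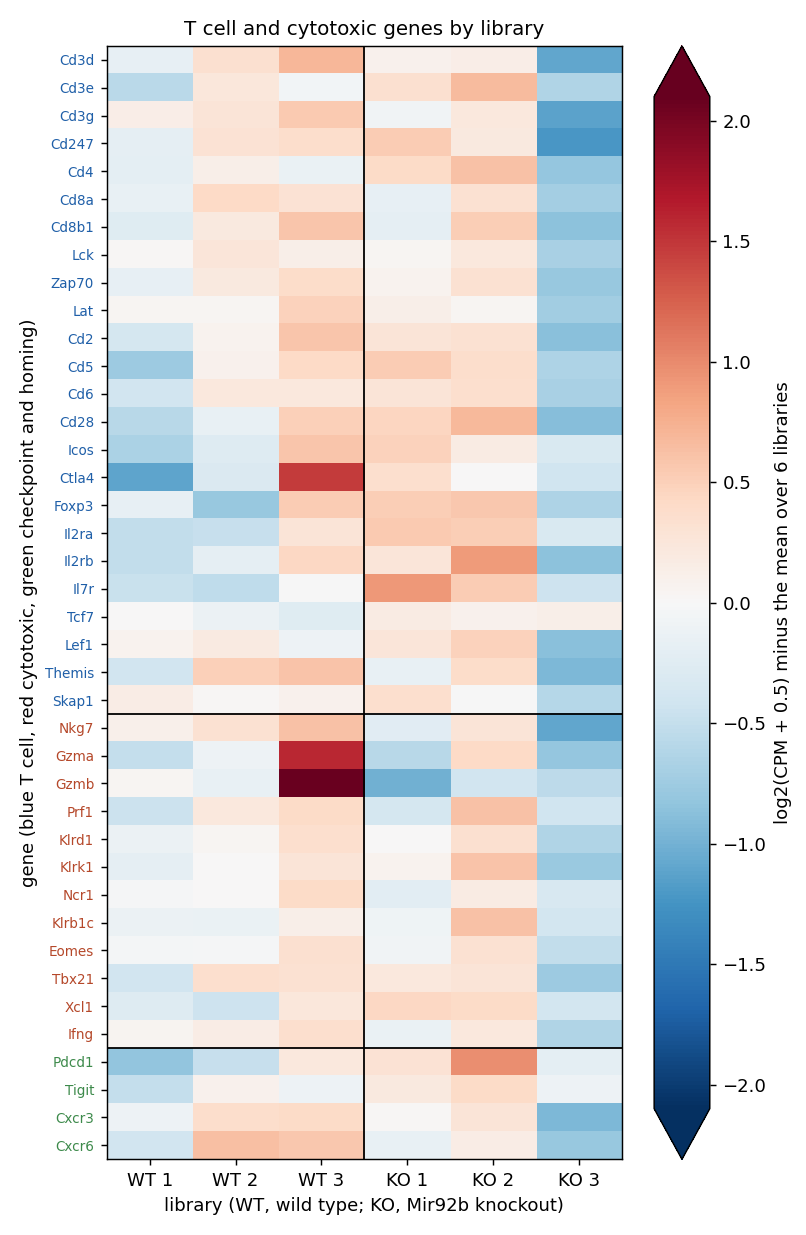
Each row is 1 of the 40 genes and each column 1 library, with 3 wild-type libraries (WT) left of the line and 3 knockout libraries (KO) right of it. Colour gives log2(CPM + 0.5) minus the gene's mean over the 6 libraries, so the blue column of knockout replicate 3 and the dark red Gzma and Gzmb cells of wild-type replicate 3 stand out.

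The chains of the CD3 complex did not share a direction. Cd3d, which encodes CD3 delta (chr9:44981786-44987339), stood at 3.69, 5.48 and 7.17 CPM in wild-type replicates 1 to 3 and at 4.49, 4.68 and 1.71 CPM in knockout replicates 1 to 3, the order used for all values that follow. Cd3g, encoding CD3 gamma (chr9:44969572-44980431), stood at 8.26, 9.04 and 11.2 CPM in wild type and 7.07, 8.80 and 3.16 CPM in knockout. For both genes the highest library was wild-type replicate 3 and the lowest knockout replicate 3, and the groups overlapped, with log2 fold changes of -0.59 ± 0.43 (SE) and -0.58 ± 0.36. Cd3e, encoding CD3 epsilon (chr9:44998740-45009627), stood at 1.88, 3.62 and 2.89 CPM in wild type and 3.95, 5.09 and 1.77 CPM in knockout, with a log2 fold change of 0.36 ± 0.43. Here the highest value was that of knockout replicate 2, and knockout replicate 3 lay just under wild-type replicate 1. Cd247, which encodes the zeta chain and holds 1 of the 3 seed matches, gave 2.56, 3.84 and 4.02 CPM in wild type and 4.56, 3.56 and 1.01 CPM in knockout (-0.19 ± 0.51). Its lowest library was again knockout replicate 3, and without that library its log2 fold change was 0.22, of the opposite sign. The last 6004 nt of the RefSeq Cd247 span are shared with the neighbouring gene Pou2f1, and the seed match lies in that stretch.

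The coreceptor Cd4, which marks helper T cells and is also present on some myeloid cells, stood at 8.35, 10.6 and 8.79 CPM in wild type and 12.9, 15.1 and 5.32 CPM in knockout (0.27 ± 0.36). Knockout replicates 1 and 2 were above all wild-type libraries and knockout replicate 3 below them all. Cd8a, the alpha chain of the coreceptor of killer T cells, gave 8.85, 13.6 and 12.4 CPM in wild type and 8.78, 12.6 and 5.86 CPM in knockout (-0.35 ± 0.31), and its partner Cd8b1 gave 2.73, 3.94 and 5.25 CPM in wild type and 2.85, 4.98 and 1.61 CPM in knockout (-0.34 ± 0.44). For both chains the groups overlapped and knockout replicate 3 was lowest. Lck, the kinase bound to CD4 and CD8, stood at 13.9, 16.3 and 14.9 CPM in wild type and 13.98, 15.9 and 8.32 CPM in knockout (-0.24 ± 0.25). Apart from the 8.32 CPM of knockout replicate 3, its values stayed within 13.9 to 16.3 CPM. The kinase Zap70 (-0.24 ± 0.37) and the adaptor Lat (-0.37 ± 0.30) had overlapping groups, as did the adaptor Skap1 (-0.14 ± 0.32) and Themis (-0.53 ± 0.49), which tunes receptor signalling in the thymus. The adhesion receptor Cd2 (-0.17 ± 0.43) and the surface receptors Cd5 (0.20 ± 0.47) and Cd6 (0.01 ± 0.37), which modulate receptor signalling, lay within 1 SE of 0.

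Among genes of costimulation and regulatory T cells, the spread between libraries of 1 genotype was wide. Cd28, the main costimulatory receptor and the second gene with a seed match, gave 1.46, 2.12 and 3.64 CPM in wild type and 3.51, 4.19 and 1.07 CPM in knockout (0.28 ± 0.54). Ctla4, the inhibitory receptor for the same ligands, stood at 0.517, 1.27 and 5.55 CPM in wild type and 2.28, 1.70 and 1.13 CPM in knockout. The value of 5.55 CPM in wild-type replicate 3 was above every other library, and the log2 fold change of -0.53 ± 0.77 became 0.92 without it. Foxp3, the transcription factor that defines regulatory T cells, gave 1.32, 0.688 and 2.49 CPM in wild type and 2.44, 2.56 and 0.814 CPM in knockout (0.37 ± 0.57), with wild-type replicate 3 between knockout replicates 1 and 2. Icos, a costimulatory receptor of activated T cells, had a log2 fold change of 0.20 ± 0.45, and its groups overlapped.

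The receptors for growth-supporting cytokines all had positive log2 fold changes. Il7r, the receptor for the survival cytokine interleukin 7, stood at 5.13, 4.86 and 7.19 CPM in wild type and 14.1, 10.7 and 5.22 CPM in knockout. Knockout replicates 1 and 2 exceeded every wild-type library, but knockout replicate 3 fell between wild-type replicates 1 and 3. Its log2 fold change was 0.80 ± 0.37 (edgeR quasi-likelihood adjusted p = 0.627). Il2ra, the high-affinity chain of the interleukin 2 receptor, had a log2 fold change of 0.62 ± 0.42, and Il2rb, the chain shared with the interleukin 15 receptor, one of 0.31 ± 0.46, with overlapping groups in both cases. Il2rb reversed to -0.18 without knockout replicate 2, whose 18.6 CPM was the highest of the 6 libraries.

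Tcf7, the transcription factor of naive and memory-like T cells, was the 1 T cell gene whose groups did not overlap. It stood at 14.3, 13.03 and 11.8 CPM in wild type and 16.1, 15.3 and 15.6 CPM in knockout, means of 13.1 ± 1.23 and 15.7 ± 0.413 CPM (SD, n = 3 each). The log2 fold change was 0.26 ± 0.16 (edgeR quasi-likelihood adjusted p = 0.649). Unlike 28 of the 40 genes, Tcf7 was not lowest in knockout replicate 3, where its value of 15.6 CPM lay between those of knockout replicates 1 and 2. Its 3' end overlaps Skp1 over 332 nt in RefSeq. Lef1, the related factor of naive T cells, gave 2.26, 2.51 and 1.94 CPM in wild type and 2.62, 3.18 and 0.933 CPM in knockout, where replicate 3 was the lowest of all, and its log2 fold change was 0.00 ± 0.44.

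**Figure D2:**
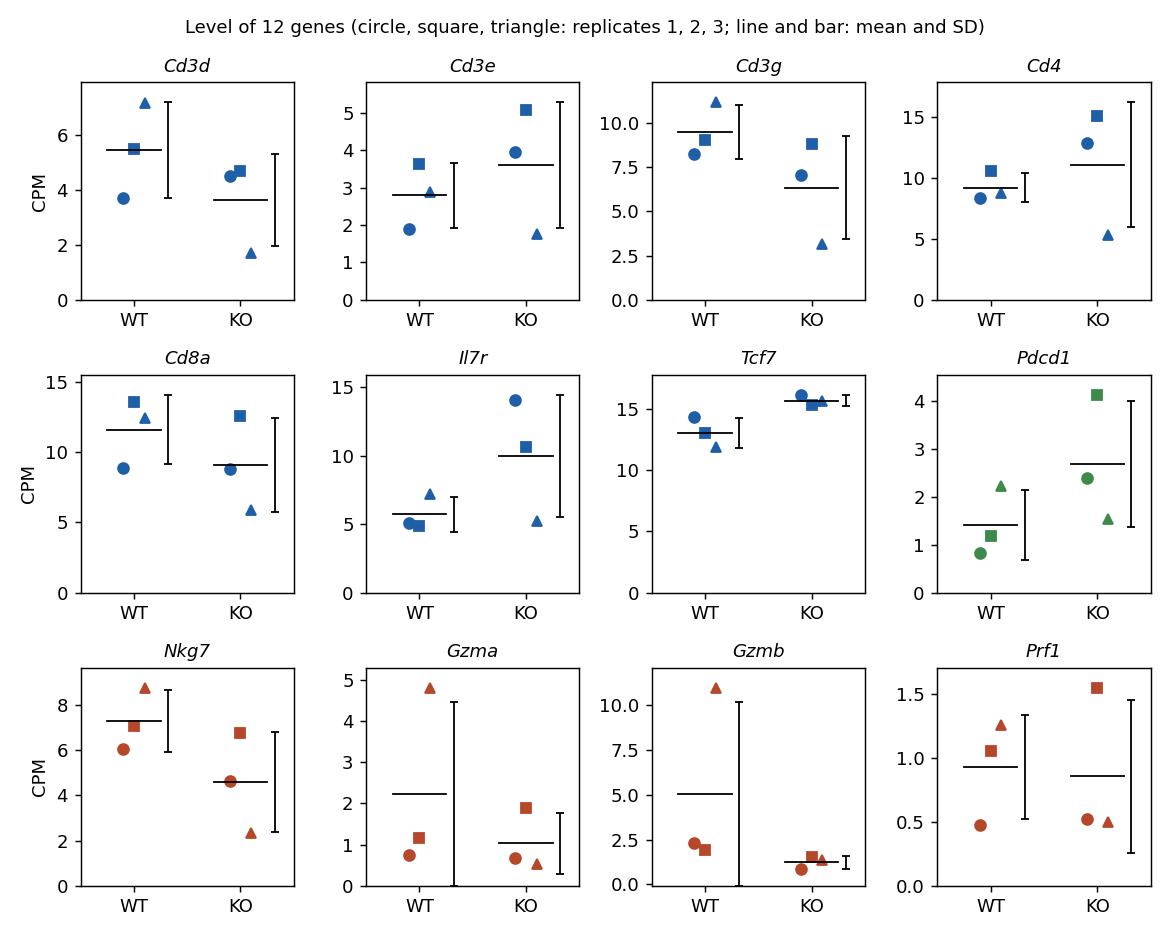
Level in CPM of 12 genes in the 3 wild-type (WT) and 3 knockout (KO) libraries, with a symbol for each replicate number and a line and bar for the mean and SD of the group. Tcf7 and Gzmb are the 2 genes whose groups do not overlap, and the wild-type means of Gzma and Gzmb are carried by replicate 3.

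Both granzyme genes had lower means in the knockout, and wild-type replicate 3 carried most of that difference. Gzmb (chr14:56258838-56262260), which encodes the apoptosis-inducing protease granzyme B, stood at 2.28, 1.92 and 10.96 CPM in wild type and 0.844, 1.55 and 1.35 CPM in knockout. All 3 knockout values were under all 3 wild-type values, but wild-type replicates 1 and 2 lay near the knockout range and wild-type replicate 3 far above every other library. The log2 fold change was -2.02 ± 0.69 (edgeR quasi-likelihood adjusted p = 0.627), and -0.75 without wild-type replicate 3. The smallest adjusted p of any of the 40 genes under 17 alternatives was 0.157, that of Gzmb in DESeq2. Gzma (chr13:113093825-113100981), encoding the trypsin-like granzyme A, gave 0.753, 1.15 and 4.81 CPM in wild type and 0.684, 1.89 and 0.516 CPM in knockout. Its groups overlapped, and its log2 fold change of -1.12 ± 0.78 became 0.11 without wild-type replicate 3. Its locus lies inside Cdc20b in RefSeq, whose own row held at most 8 counts in a library. Prf1, encoding the pore-forming protein perforin, gave 0.470, 1.05 and 1.25 CPM in wild type and 0.525, 1.55 and 0.496 CPM in knockout (-0.12 ± 0.56), and its highest library was knockout replicate 2 in place of wild-type replicate 3. Nkg7, a granule membrane protein of killer cells, gave 6.05, 7.06 and 8.76 CPM in wild type and 4.65, 6.79 and 2.34 CPM in knockout (-0.67 ± 0.38), with knockout replicate 2 inside the wild-type range.

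Receptors of natural killer cells showed no common direction. Ncr1, which encodes the activating receptor NKp46 and is nearly restricted to natural killer and innate lymphoid cells, gave 0.447, 0.465 and 0.766 CPM in wild type and 0.319, 0.580 and 0.258 CPM in knockout (-0.54 ± 0.45). These levels rest on 13 to 36 counts in a library. Klrb1c, the NK1.1 antigen of C57BL/6 mice, gave 1.06, 1.03 and 1.34 CPM in wild type and 1.09, 2.08 and 0.794 CPM in knockout (0.21 ± 0.41), with knockout replicate 2 the highest. Klrd1, the CD94 chain of inhibitory receptors, gave 3.65, 4.17 and 5.28 CPM in wild type and 4.04, 5.22 and 2.42 CPM in knockout (-0.17 ± 0.33). Klrk1, the activating receptor NKG2D found on natural killer cells and killer T cells, gave 5.62, 6.45 and 7.91 CPM in wild type and 6.84, 10.03 and 3.56 CPM in knockout (0.03 ± 0.37). The groups of all 4 receptors overlapped, and knockout replicate 3 was lowest for each.

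The transcription factors that drive killer programmes had log2 fold changes smaller than their SE. Eomes, the third gene with a seed match, gave 1.62, 1.66 and 2.25 CPM in wild type and 1.57, 2.23 and 1.03 CPM in knockout (-0.20 ± 0.36). Tbx21, which encodes T-bet, gave 0.965, 1.98 and 1.92 CPM in wild type and 1.76, 1.85 and 0.636 CPM in knockout (-0.20 ± 0.48). The 3 genes with a seed match thus had log2 fold changes of -0.19 (Cd247), 0.28 (Cd28) and -0.20 (Eomes), each smaller than its SE. Of the secreted products, Ifng, encoding interferon-gamma, gave 0.306, 0.364 and 0.489 CPM in wild type and 0.205, 0.408 and 0 CPM in knockout (-0.93 ± 0.88). The count of 0 in knockout replicate 3 allows up to 0.0596 CPM (3 counts, counting error only), and no library held more than 23 counts. Xcl1, a chemokine that draws cross-presenting dendritic cells, gave 0.541, 0.425 and 0.979 CPM in wild type and 1.19, 1.16 and 0.457 CPM in knockout (0.52 ± 0.49).

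Of the checkpoint and homing genes, Pdcd1, which encodes the inhibitory receptor PD-1, stood at 0.823, 1.17 and 2.23 CPM in wild type and 2.40, 4.12 and 1.53 CPM in knockout. Its log2 fold change was 0.92 ± 0.49 (edgeR quasi-likelihood adjusted p = 0.638), and wild-type replicate 3 lay above knockout replicate 3. Cxcr3, the receptor for interferon-induced chemokines, gave 5.50, 7.91 and 8.04 CPM in wild type and 6.11, 7.30 and 2.88 CPM in knockout (-0.40 ± 0.36). Cxcr6, a receptor of tissue-resident lymphocytes, gave 4.75, 10.3 and 9.79 CPM in wild type and 5.70, 7.19 and 3.52 CPM in knockout (-0.60 ± 0.37), and its RefSeq span overlaps that of Fyco1. Both homing receptors were lowest in knockout replicate 3, and their groups overlapped.

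The row labelled Tigit, an inhibitory receptor of T cells and natural killer cells, stood far above the others. It stood at 165, 249 and 216 CPM in wild type and 270.2, 307 and 217 CPM in knockout (0.33 ± 0.21), that is 7028 to 14302 counts. Per kilobase of its longest GENCODE transcript the wild-type mean was 229 CPM, whereas the next highest of the 40 genes were Nkg7 at 8.28, Lck at 6.87 and Tcf7 at 5.29 CPM per kilobase. RefSeq places Tigit at chr16:43626137-43665125 on the minus strand, and this span overlaps Zbtb20, a gene on the plus strand, over 8256 nt and holds 16466 nt of GENCODE Zbtb20 exons. The GENCODE span of Tigit, chr16:43648867-43664146, holds none of them, since GENCODE Zbtb20 ends at 43642602. The strand used for counting is not given in the sources used here, so reads of Tigit and of its antisense neighbour cannot be told apart. The row labelled Zbtb20 held 648 to 1619 counts. Without Tigit, the other 3 genes of its group summed to 11.1, 19.3 and 20.1 CPM in wild type and 14.2, 18.6 and 7.92 CPM in knockout.

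**Figure D3:**
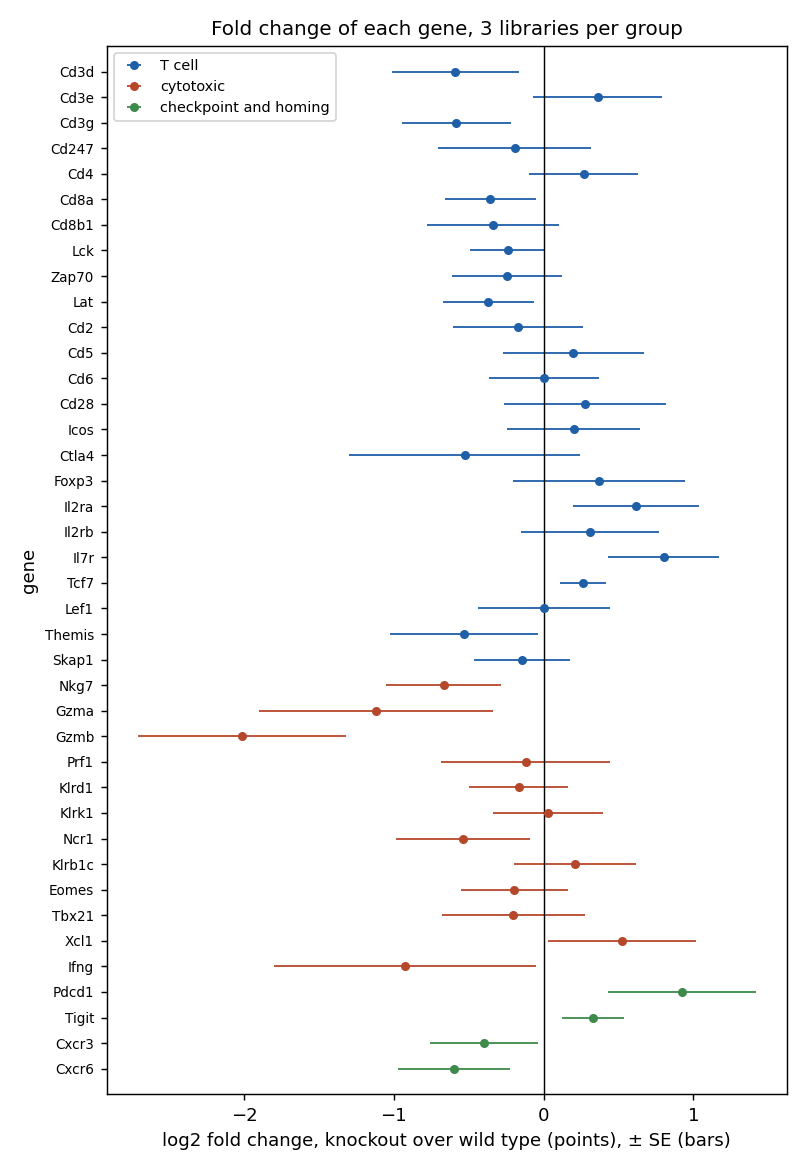
Points give the log2 fold change of each of the 40 genes (knockout over wild type, 3 libraries each) and bars its SE, coloured by group. Gzmb at -2.02 lies farthest from 0 and Pdcd1 at 0.92 farthest on the other side, and T cell genes fall on both sides of 0.

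One library of each genotype set many of these values. The knockout replicate 3 was the lowest of the 6 libraries for 17 of the 24 T cell genes and 9 of the 12 cytotoxic genes, and for 18.95% of all genes tested. The wild-type replicate 3 was the highest for 7 of the 12 cytotoxic genes and 9 of the 24 T cell genes, and for 23.46% of all genes tested. The summed level of the T cell genes was 107, 132 and 155 CPM in wild type and 149.5, 165 and 76.5 CPM in knockout, so knockout replicate 2 was above all wild-type libraries, knockout replicate 1 above all but replicate 3, and knockout replicate 3 under them all. Without knockout replicate 3 the median log2 fold change of the T cell genes was 0.25, with 16 of 24 above 0, and without replicate 3 of both genotypes 0.37, with 21 of 24 above 0. The cytotoxic genes summed to 23.8, 27.7 and 46.7 CPM in wild type and 23.7, 35.3 and 13.9 CPM in knockout. Their median was 0.07 without knockout replicate 3, -0.01 without wild-type replicate 3, 0.27 without both and -0.68 without knockout replicate 2. Gzma and Gzmb together gave 3.04, 3.08 and 15.8 CPM in wild type and 1.53, 3.44 and 1.87 CPM in knockout, while the other 10 cytotoxic genes gave 20.7, 24.7 and 30.9 CPM in wild type and 22.2, 31.9 and 12.00 CPM in knockout. The low dendritic cell and tubule marker sums and high fibroblast and endothelium sum of knockout replicate 3, given above, moved with its low T cell and cytotoxic sums, and their part in these results was not tested.

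**Figure D4:**
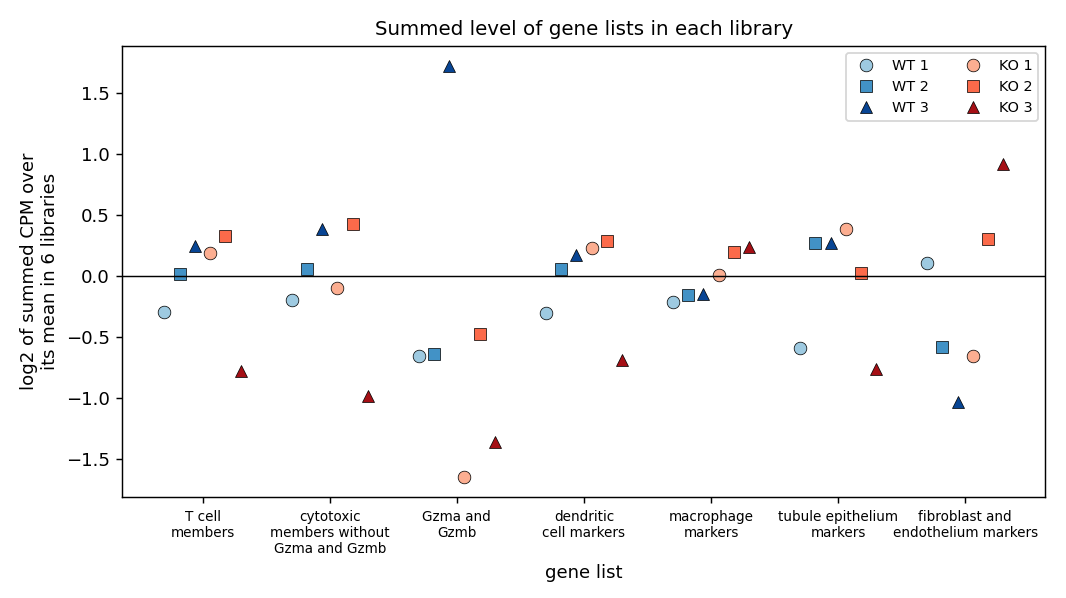
Summed CPM of each gene list in each library, as log2 of its ratio to the mean of the 6 libraries. Knockout replicate 3 (dark red triangles) is lowest for T cell genes, for the 10 other cytotoxic genes, for dendritic cell and for tubule markers and highest for fibroblast and endothelium markers, and wild-type replicate 3 (dark blue triangles) stands apart for Gzma and Gzmb.

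Ratios between genes of 1 library do not depend on the scaling between libraries, and the groups of some did not overlap although those of the levels did. They were picked after the values were seen and carry no test, and the share of other gene pairs without overlap was not computed. The ratio of Cd3e to Cd3g counts was 0.228, 0.400 and 0.259 in wild type and 0.558, 0.578 and 0.560 in knockout, so the 3 knockout libraries were close together and above all wild-type libraries, knockout replicate 3 included. The ratio of Cd3e to Cd3d was 0.510, 0.660 and 0.404 in wild type and 0.878, 1.09 and 1.03 in knockout, again without overlap, whereas that of Cd3d to Cd3g overlapped, at 0.447, 0.606 and 0.642 in wild type and 0.635, 0.532 and 0.541 in knockout. The 3 genes form a cluster on chromosome 9, in which Cd3g and Cd3d start 1355 nt apart and are read away from each other, and Cd3e lies 11401 nt beyond the end of Cd3d. The ratio of Il7r to Cd3g was 0.621, 0.537 and 0.644 in wild type and 1.99, 1.21 and 1.65 in knockout, and that of the Tigit row to Cd3g was 20.02, 27.6 and 19.3 in wild type and 38.2, 34.9 and 68.7 in knockout, with no overlap in either case. The ratio of Cd4 to Cd8a was 0.944, 0.779 and 0.710 in wild type and 1.47, 1.20 and 0.908 in knockout, and there the lowest knockout library lay under the highest wild-type library. The ratios of Cd8b1 to Cd8a, Gzmb to Nkg7, Prf1 to Nkg7 and the Tigit row to Zbtb20 overlapped as well. Those without overlap were all ratios to Cd3g or Cd3d, so they are not independent of each other.

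**Figure D5:**
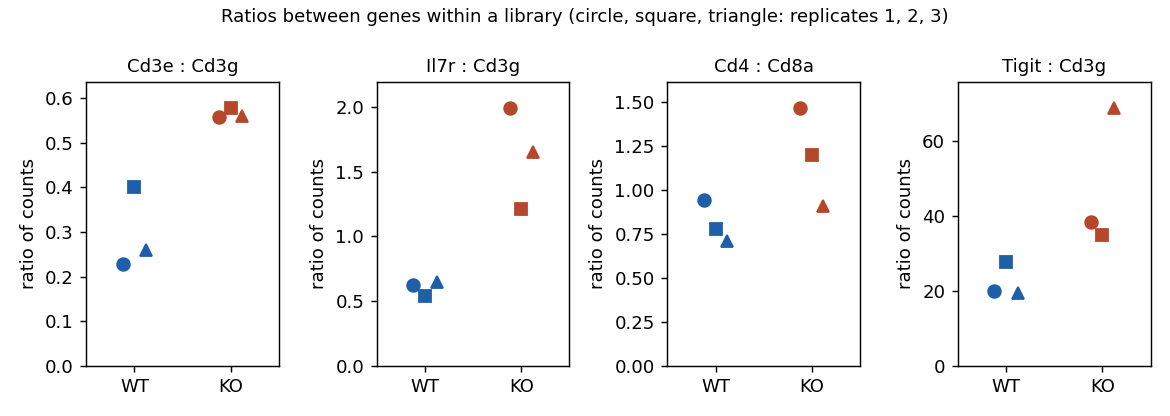
Ratio of the counts of 2 genes within each library, for 3 wild-type (WT) and 3 knockout (KO) libraries. The groups are apart for Cd3e to Cd3g, Il7r to Cd3g and Tigit to Cd3g, and overlap for Cd4 to Cd8a.

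The same was done for every gene by subtracting, in each library, the mean log2(CPM + 0.5) of the 24 T cell genes. On this scale the groups of 10 of the 40 genes did not overlap, 4 higher and 6 lower in the knockout, beside 2.31% of all genes tested (1.54% higher and 0.771% lower). The level subtracted ran from 1.53 in knockout replicate 3 to 2.61 in wild-type replicate 3. Subtracting it adds this spread to genes that do not vary with it, and the share over all genes was 16.1% before centring. The 24 T cell genes set the level and vary with it, and knockout replicate 3 was also lowest for 9 of the 12 cytotoxic genes. The 10 of 40 and the 2.31% are thus not a like comparison, and no conclusion is drawn from their difference. Higher were Il7r, Il2ra, Xcl1 and Pdcd1, and lower were Cd3d, Cd3g, Zap70, Lat, Nkg7 and Cxcr3. Centred Il7r stood at 0.55, 0.15 and 0.34 in wild type and 1.36, 0.87 and 0.98 in knockout, and centred Pdcd1 at -1.54, -1.53 and -1.16 in wild type and -0.98, -0.40 and -0.51 in knockout. Centred Cd3g stood at 1.19, 0.98 and 0.94 in wild type and 0.41, 0.61 and 0.34 in knockout, and centred Nkg7 at 0.77, 0.65 and 0.61 in wild type and -0.14, 0.26 and -0.03 in knockout, each with knockout replicate 3 among its own group.

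The promoters of the genes were searched for 3 motifs of lymphocyte factors, as a description of their sequence. RefSeq windows of 300 nt (250 before the start and 50 after it, GRCm38.p6) were found for 31 of the 40 genes, some with more than 1 start, and both strands were read for TGTGGTT (the core of RUNX factors), ACAGGAAG (ETS factors) and AGGTGTGA (T-box factors such as Eomes and T-bet). No match overlapped another. TGTGGTT was present in 6 of 12 promoters of cytotoxic genes (5 of 11 genes), 2 of 25 promoters of T cell genes (2 of 16 genes) and 2 of 4 of checkpoint and homing genes, beside 5.27% of all 32851 promoters. For each of the 5 cytotoxic genes 1 match is printed 5' to 3' on the gene's strand with the motif, or its reverse complement AACCACA, in capitals.
Gzma at chr13:113101015-113101043, minus strand: gagaagaacaaAACCACAtcctttgcact
Gzmb at chr14:56262351-56262379, minus strand: gtgggttctgcTGTGGTTacttcatgatt
Klrk1 at chr6:129623976-129624004, minus strand: gatagctgtgcTGTGGTTgtgtgggggtt
Ncr1 at chr7:4337528-4337556, plus strand: tagatccaaaaTGTGGTTaaatgtgttat
Xcl1 at chr1:164935733-164935761, minus strand: aatgacacattAACCACAcagggagaaga
ACAGGAAG was present in 6 of 25 promoters of T cell genes, 1 for each of 6 genes of 16, and in 0 of 12 promoters of cytotoxic genes, beside 3.58% of all promoters. The 6 matches are printed with the motif, or its reverse complement CTTCCTGT, in capitals. On the centred scale 1 of these 6 genes was higher in every knockout library (Il7r), 2 were lower (Lat and Zap70) and 3 overlapped (Cd3e, Lck and Lef1). The share of all genes tested without overlap on that scale was 2.31%. As said above this is not a like comparison, since T cell genes set the level subtracted, and nothing is drawn from it about the motif.
Cd3e at chr9:45009610-45009639, minus strand: tcccctctacaCTTCCTGTgtggggttcag
Il7r at chr15:9529906-9529935, minus strand: ttttgctcagaCTTCCTGTttctggcactt
Lat at chr7:126369548-126369577, minus strand: cctcaccacagCTTCCTGTcgcacgcggtg
Lck at chr4:129573635-129573664, minus strand: gccctcaggagACAGGAAGtcagggtggaa
Lef1 at chr3:131156268-131156297, plus strand: tttgattgcacACAGGAAGttataacagat
Zap70 at chr1:36764464-36764493, plus strand: ggtgtgttagcACAGGAAGgaactgtgctt
AGGTGTGA was found in 1 promoter, that of Nkg7, and in 1.28% of all promoters. A match is a description of the sequence and was not tested for binding.

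Other genes of the same cells had no called gene either. Of 42 further T cell genes 36 could be tested, with a median log2 fold change of -0.03, 16 above 0 and 20 below. The T cell receptor constant genes Trac, Trbc1 and Trbc2 were among those not analysed here. Of 34 further natural killer and cytotoxic genes 33 could be tested, with a median of -0.18, 11 above 0 and 22 below. Fasl, the ligand with which killer cells engage the death receptor Fas, gave 1.20, 2.39 and 2.68 CPM in wild type and 0.798, 1.20 and 0.715 CPM in knockout (-1.21 ± 0.40), and the chemokine Ccl4 gave 2.80, 1.94 and 5.42 CPM in wild type and 1.48, 1.55 and 1.81 CPM in knockout (-1.07 ± 0.40). Both had their highest value in wild-type replicate 3, as Gzma and Gzmb did. Without that library the log2 fold changes were -0.98 for Fasl and -0.55 for Ccl4, beside 0.11 for Gzma and -0.75 for Gzmb. The 7 tested genes of gamma-delta T cells and innate lymphoid cells had a median of 0.05, with the growth factor Areg at 2.56, 6.31 and 10.5 CPM in wild type and 1.60, 3.56 and 2.62 CPM in knockout. The receptor genes Trdc, Tcrg-C1 and Tcrg-C2 of this list were not analysed here. Rora, Zbtb16 and Il17re averaged 71.7, 31.4 and 28.3 CPM, above the 14.4 CPM of Tcf7, the highest of the T cell genes. Which cells they came from was not tested, so the median is not a measure of these cells.

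Ligands and partners of the 40 genes, many of them made by other cells, had no called gene. Of 27 such genes 25 were tested, 16 above 0 and 9 below, with a median log2 fold change of 0.16. Cxcl9, an interferon-induced ligand of Cxcr3, stood at 9.36, 12.2 and 15.8 CPM in wild type and 21.6, 35.3 and 13.3 CPM in knockout (0.91 ± 0.36), where knockout replicate 3 lay inside the wild-type range. Cxcl10, another ligand of Cxcr3, stood at 26.4, 42.5 and 95.85 CPM in wild type and 35.6, 44.5 and 21.03 CPM in knockout. Its log2 fold change was of the opposite sign, -0.70 ± 0.47, and -0.03 without wild-type replicate 3. The groups of 3 of the 25 did not overlap, 2 higher and 1 lower in the knockout, beside 16.1% of all genes tested. Il2rg, the common chain that pairs with Il2rb and Il7r, stood at 21.5, 22.1 and 26.4 CPM in wild type and 29.5, 31.3 and 28.4 CPM in knockout, a log2 fold change of 0.35 ± 0.14 (edgeR quasi-likelihood adjusted p = 0.627). Il15, the cytokine that sustains natural killer cells through Il2rb, stood at 11.9, 10.7 and 12.3 CPM in wild type and 10.04, 9.15 and 9.29 CPM in knockout (-0.29 ± 0.17), the 1 lower gene. Il7, the ligand of Il7r, was the other higher gene, at 1.91, 2.81 and 2.83 CPM in wild type and 3.06, 3.01 and 3.79 CPM in knockout (0.38 ± 0.28). The 23 interferon-gamma induced genes, which read the product of Ifng in the whole tissue, had a median of -0.06, with 9 above 0, 14 below and none called.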

How the data were processed

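The authors deposited 1 table of raw counts for 34714 gene symbols in 6 libraries, made from total kidney RNA with a SMARTer mRNA library kit, per the labels' protocols. Per the submitters' processing notes the build was GRCm38 (mm10). No source used here names an aligner or counting tool, or says whether strand was used. Genes were kept with edgeR's filterByExpr (version 4.0.16, R 4.3.3), which left 18927. They were scaled with TMM factors and compared, 3 knockout against 3 wild-type libraries with no covariate, with robust glmQLFit and glmQLFTest and Benjamini-Hochberg adjustment over all genes tested. The threshold was an adjusted p of 0.05, and each SE is the log2 fold change divided by the square root of F. The scripts were tested on simulated data. Alternatives were DESeq2 1.42.0, limma-voom (limma 3.58.1), other scaling factors, other filters, robust fitting off, a length correction, a replicate block and left-out libraries. All pairs of libraries differed by more than sampling noise (chi-square per degree of freedom of at least 33.6). All 34714 symbols matched RefSeq, and lengths and untranslated regions are those of GENCODE M21. The 40 genes and the lists were chosen with earlier results of these data known. Values in every library are given for the lineage genes and for any gene with an unadjusted p under 0.05. From a related list, up to 4 genes could be named, those of lowest p among genes averaging 0.5 CPM or more. Outside this rule, Il7 was named as a gene whose groups did not overlap and Cxcl10 as a further ligand of Cxcr3. The library totals and the biological coefficient of variation of 26.9% set the precision.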

Additional observations from a re-analysis of the deposited data

How the results depend on the processing

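With 3 libraries a group no exact test of a single value can go below p = 0.1, and a fold change of a gene with few counts, such as Ifng or Ncr1, rests on counting error as well as on replicates. Of the 40 genes, 0 were called under any of the 17 alternatives, and likewise 0 of the further T cell, innate lymphoid, natural killer, ligand and interferon-gamma induced genes. Among the markers of other cells, Jchain was called under 6 of them: DESeq2, limma-voom, no filter, the replicate block, without knockout replicate 3 and without replicate 3 of both groups. Over all genes, DESeq2 called 62, limma-voom 3, the fit with no filter 2, the fit with the replicate block 1 and the fit without replicate 3 of both groups 1, against 0 in the chosen fit. The fits that leave out 1 library each called 0 to 1, the 1 without knockout replicate 3. The deviations of same-numbered libraries from their group means had correlations of -0.28, 0.18 and -0.29, and those of different-numbered libraries -0.20 to 0.37. With 3 libraries a group these values cannot show whether the numbers mark a pairing. The replicate block changed no call of the 40 genes. The median of the cytotoxic genes was 0.27 without replicate 3 of both groups and ranged from -0.68 to 0.066 when 1 library was left out. The median of the T cell genes, -0.07, ranged from -0.26 to 0.25 when 1 library was left out and was 0.07 in limma-voom and 0.0053 without the genes that overlap another RefSeq gene, an alternative chosen after seeing the data. The median of the checkpoint and homing genes was -0.40 without Tigit and 0.26 without the overlapping genes, both also chosen after seeing the data.

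Of 677 values of single genes under the alternatives, 63 had the opposite sign to the chosen fit and 614 the same sign, and 16 genes kept their sign throughout. None of these values was called, and for the tools and scalings the cause was not tested. The log2 fold changes of opposite sign with a minimum of 1 CPM in 3 libraries were Cd6 -0.0042, Lef1 -0.0091. They were Cd2 0.0076, Cd6 -0.082, Lef1 -0.042, Klrd1 0.054 with the trend of transcript length removed. Library size alone gave Cd6 -0.0062, Lef1 -0.032, and upper-quartile factors gave Cd6 -0.018, Lef1 -0.035. In limma-voom they were Cd2 0.053, Ctla4 0.31, Prf1 0.013, Klrd1 0.053, Eomes 0.10. With the replicate block they were Cd6 -0.038, Ctla4 0.086, Lef1 -0.15, Klrk1 -0.065. Without replicate 3 of both groups, with fewer libraries, they were Cd3d 0.0010, Cd247 0.34, Cd8b1 0.23, Zap70 0.20, Lat 0.049, Cd2 0.49, Ctla4 1.14, Themis 0.023, Skap1 0.11, Gzma 0.43, Prf1 0.44, Klrd1 0.25, Eomes 0.22, Tbx21 0.29, Cxcr3 0.0018. Leaving out 1 library at a time, the lowest and highest values of the genes that changed sign were Cd247 -0.60 to 0.22, Cd4 -0.025 to 0.60, Zap70 -0.52 to 0.051, Cd2 -0.39 to 0.16, Cd5 -0.11 to 0.53, Cd6 -0.20 to 0.29, Cd28 -0.075 to 0.71, Icos -0.078 to 0.75, Ctla4 -0.996 to 0.92, Il2rb -0.18 to 0.67, Lef1 -0.34 to 0.38, Skap1 -0.43 to 0.10, Gzma -1.89 to 0.11, Prf1 -0.86 to 0.17, Klrd1 -0.44 to 0.086, Klrk1 -0.36 to 0.34, Klrb1c -0.28 to 0.48, Eomes -0.50 to 0.047, Tbx21 -0.47 to 0.15.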
